A study of Rattus norvegicus with 4 samples.

Results

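The corticosteroid receptors, the enzymes that activate or inactivate corticosterone inside cells, and genes that respond to the receptors were followed in the carotid body (CB), the small oxygen-sensing organ where the carotid artery divides. The members were 10 genes taken by name from the 32883 genes of the count table. They were Nr3c1 and Nr3c2 (the glucocorticoid and mineralocorticoid receptors), Hsd11b1 and Hsd11b2 (the 11-beta-hydroxysteroid dehydrogenases), and the response genes Fkbp5, Tsc22d3, Zbtb16, Sgk1, Klf9 and Ddit4. The samples were CBs of Sprague Dawley rats at postnatal day 5 (neonates) and day 21 (here called adults), with 2 libraries per age and 4 in all. Per the labels, each library held the CBs of 6 pups or of 3 adults, the latter grown from the same litters, and no animal was genetically altered or treated other than by the urethane used at harvest. Each library was made from a pool of whole organs, so differences between animals and between cell types are averaged within it.

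Corticosterone, the main glucocorticoid of the rat, enters cells and binds receptors that are held ready by chaperones and then act on DNA with coregulators. The mineralocorticoid receptor binds corticosterone more tightly than the glucocorticoid receptor does. Hsd11b1 regenerates corticosterone from its inert 11-keto form, and Hsd11b2 inactivates it. Rat pups pass through a period of low circulating corticosterone in the first weeks of life. Hormone supply may therefore differ between day 5 and day 21 along with age. Hormone was not measured in these data, and many of the response genes also answer to other signals.

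The libraries held 39476110 and 38506468 estimated counts in neonates and 37778975 and 36286191 in adults, so that 3 counts, the floor used here, are worth 0.0760 to 0.0827 CPM (counts scaled to a common library total), covering counting error only. The share of counts from mitochondrially encoded genes was 18.7% and 15.6% in neonates against 9.06% and 9.08% in adults. CPM below are raw counts over the library total, and log2 fold changes (neonate over adult, so that a negative value is a lower level in neonates) come from edgeR with TMM factors of 0.902 and 0.935 in neonates and 1.08 and 1.10 in adults. Ratios of the raw CPM therefore exceed the fitted folds for genes that were lower in neonates, and library size alone as the scale moves the median of all genes from 0.00 to -0.25. Markers of glomus cells, the oxygen-sensing cells, summed to 4363 and 3316 CPM in neonates and 4535 and 3705 CPM in adults, and their most widely used marker, Th, was present in every library (781 to 1517 CPM). Neonate 1 stood apart in parathyroid RNA, with Pth at 1595 CPM against 194 CPM in neonate 2 and 0 in both adult libraries. Summed markers were at 1128 and 1203 CPM in neonates against 2200 and 2354 CPM in adults for smooth muscle and pericytes (4 of 6 lower in neonates, 1 higher), a gap that was mostly Rgs5. They were at 11665 and 14460 against 17989 and 20194 CPM for fibroblasts (3 of 5 lower), a sum that was mostly Col1a1 and Col3a1, neither of which passed (adjusted p = 0.38 and 0.071). Those of dividing cells summed to 464 and 405 against 117 and 120 CPM (5 of 5 higher), and those of adipocytes to 42.6 and 69.5 against 110 and 133 CPM. All 4 adipocyte markers that could be tested were lower in neonates, among them Adipoq at a log2 fold change of -2.51. In such bulk samples, fewer cells of a type and less RNA per cell cannot be told apart, and the part of these cell types in the results was not tested.

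Of the 10 members, 9 were lower in neonates and 1, Hsd11b2, was higher at an adjusted p under 0.05 by edgeR's quasi-likelihood test. Over all 13843 genes tested, 62.3% passed this test, 31.1% lower and 31.2% higher. Beyond 2-fold, 6 members were lower (Nr3c2, Fkbp5, Tsc22d3, Zbtb16, Klf9 and Ddit4) and 0 were higher, against 13.2% and 7.68% of all genes tested and 20.8% in either direction. The median log2 fold change was -1.28 over the members and 0.00 over all genes tested. The libraries of both ages did not overlap for any of the 10 members, which was also the case for 83.1% of the genes tested. Nr3c2 and Zbtb16 lay under 1 CPM in both neonatal libraries and passed the filter only through the adult libraries. Of the other 8, which were at 1 CPM or more in all 4 libraries, 7 were lower and 1 was higher, while 29.9% of the 12707 genes at that level were lower and 32.4% higher.

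**Figure D1:**
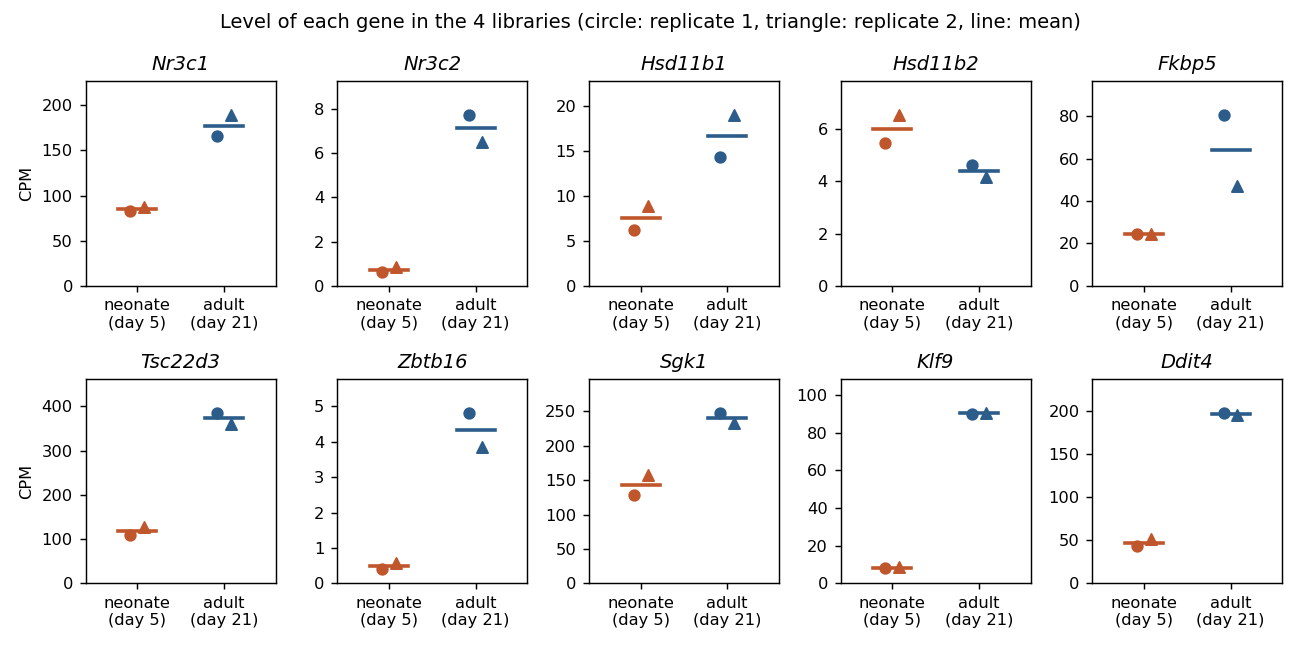
Level of the 10 genes in CPM (vertical axis, starting at 0 in each panel) in the neonatal and adult libraries, with a circle for replicate 1, a triangle for replicate 2 and a line at the mean of each age. All genes but Hsd11b2 were higher in both adult libraries, and the adult libraries lay farthest apart for Fkbp5, at 80.5 and 47.2 CPM.

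Both corticosteroid receptors were lower in neonates. Nr3c1 (ENSRNOG00000014096) was at 83.1 and 87.7 CPM in the neonatal libraries and 166 and 189 CPM in the adult libraries. The means were 85.4 ± 3.26 and 178 ± 16.4 CPM (SD, n = 2 each), and the fitted level was 1.75-fold higher in adults (log2 fold change -0.81, SE 0.083, 95% interval -0.997 to -0.623, edgeR adjusted p = 5.3e-05). The glucocorticoid receptor was thus well detected at both ages, and its spread within an age was smaller than the gap between ages.

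Nr3c2 (ENSRNOG00000034007) was at a low level in neonates, with 25 and 32 counts (0.633 and 0.831 CPM), and was at 292 and 237 counts (7.73 and 6.53 CPM) in adults. Its means were 0.732 ± 0.140 and 7.13 ± 0.847 CPM (SD, n = 2 each), an 8.21-fold fitted difference (log2 fold change -3.04, SE 0.31, 95% interval -3.73 to -2.34, edgeR adjusted p = 4.9e-05). Within a library the count of Nr3c1 was 131 and 105.5 times that of Nr3c2 in neonates and 21.5 and 28.9 times in adults. The balance of the receptor transcripts therefore differed 4.72-fold between ages on the mean log2 scale, a quantity that does not depend on the scaling of libraries. With 2 libraries against 2, the exact two-sided permutation test gave p = 0.333, the smallest that it can give. Transcript lengths were not used here, so these ratios compare ages and not the levels of the receptors with each other.

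The enzymes of corticosterone metabolism moved in opposite directions. Hsd11b1 (ENSRNOG00000005861), the activating enzyme, was at 6.13 and 8.88 CPM in neonates and 14.3 and 18.9 CPM in adults. Its fitted level was 1.87-fold higher in adults (7.51 ± 1.95 and 16.6 ± 3.30 CPM, SD, n = 2 each, log2 fold change -0.90, SE 0.21, 95% interval -1.38 to -0.43, edgeR adjusted p = 0.0050). Without adult replicate 2, the log2 fold change was -0.70 and the adjusted p 0.055. Hsd11b2 (ENSRNOG00000017084), the inactivating enzyme, was at 5.47 and 6.54 CPM in neonates and 4.63 and 4.19 CPM in adults.

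The neonatal and adult values of Hsd11b2 lay close together, and it was the only member higher in neonates (6.01 ± 0.759 and 4.41 ± 0.313 CPM, SD, n = 2 each, 1.61-fold, log2 fold change 0.69, SE 0.23, 95% interval 0.16 to 1.22, edgeR adjusted p = 0.029). Its call was lost with library size alone (0.45, adjusted p = 0.13), without neonate replicate 2 (0.59, adjusted p = 0.064), without adult replicate 1 (0.77, adjusted p = 0.091) and without adult replicate 2 (0.61, adjusted p = 0.17). The ratio of Hsd11b1 to Hsd11b2 counts was 1.12 and 1.36 in neonates and 3.08 and 4.52 in adults. It was 3.03-fold higher in adults on the mean log2 scale, with no overlap between ages and again the smallest exact permutation p of 0.333. H6pd, which supplies the cofactor that lets Hsd11b1 work in the activating direction, was at 3.83 and 1.77 CPM in neonates and 11.04 and 14.1 CPM in adults (log2 fold change -1.91, SE 0.34, edgeR adjusted p = 0.0013).

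**Figure D2:**
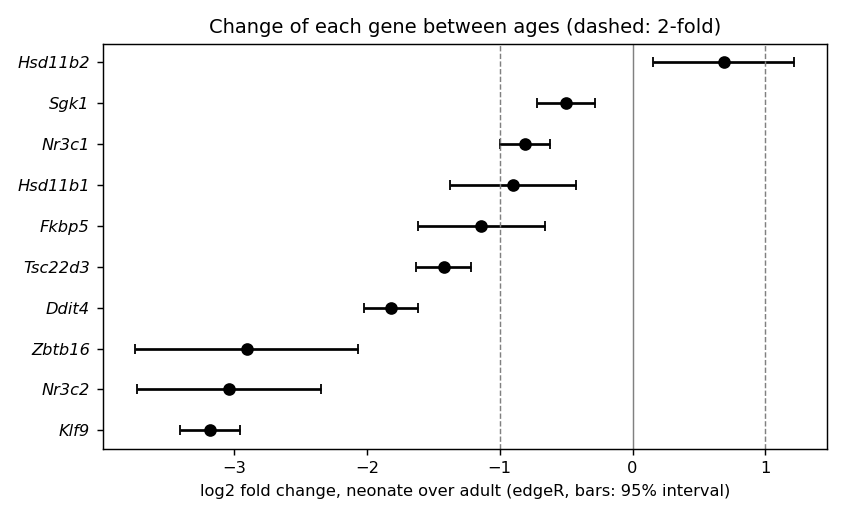
Log2 fold change of each member, neonate over adult (horizontal axis, points), with 95% intervals from edgeR (bars) and dashed lines at 2-fold. Klf9, Nr3c2 and Zbtb16 lay farthest to the left, at -3.18, -3.04 and -2.90, and Hsd11b2 alone lay to the right of 0.

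All 6 response genes were lower in neonates, 5 of them beyond 2-fold. Their median log2 fold change was -1.62. Of all genes tested, 31.1% were lower in neonates and 13.2% were lower beyond 2-fold. Zbtb16, which is among those beyond 2-fold, passed the filter only through the adult libraries. Klf9 (ENSRNOG00000014215), a Krüppel-like transcription factor induced by glucocorticoid and thyroid hormones, had the largest difference among the members. Its levels were 8.03 and 8.78 CPM in neonates and 90.1 and 90.5 CPM in adults, and libraries of the same age were nearly equal. The fitted level was 9.06-fold higher in adults (8.40 ± 0.529 and 90.3 ± 0.301 CPM, SD, n = 2 each, log2 fold change -3.18, SE 0.099, 95% interval -3.40 to -2.96, edgeR adjusted p = 1.1e-06), which ranked 86 from the lowest log2 fold change of the 13843 genes tested.

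Zbtb16 (ENSRNOG00000029980), a zinc finger repressor and a sensitive glucocorticoid target in many cells, was at 16 and 22 counts (0.405 and 0.571 CPM) in neonates and 182 and 140 counts (4.82 and 3.86 CPM) in adults. This was a 7.48-fold fitted difference from a low level (0.488 ± 0.117 and 4.34 ± 0.678 CPM, SD, n = 2 each, log2 fold change -2.90, SE 0.37, 95% interval -3.74 to -2.06, edgeR adjusted p = 0.00018). Ddit4 (ENSRNOG00000057078), an inhibitor of mTOR signalling that also answers to hypoxia and energy stress, was at 42.9 and 51.2 CPM in neonates and 197 and 195 CPM in adults. Its fitted level was 3.52-fold higher in adults (47.0 ± 5.92 and 196 ± 1.70 CPM, SD, n = 2 each, log2 fold change -1.82, SE 0.089, 95% interval -2.02 to -1.61, edgeR adjusted p = 2.0e-06).

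Tsc22d3 (ENSRNOG00000056135), which encodes the glucocorticoid-induced leucine zipper GILZ, was at 109 and 127 CPM in neonates and 385 and 361 CPM in adults. The adult level was 2.68-fold higher (118 ± 12.8 and 373 ± 17.3 CPM, SD, n = 2 each, log2 fold change -1.42, SE 0.091, 95% interval -1.63 to -1.21, edgeR adjusted p = 6.0e-06). Sgk1 (ENSRNOG00000011815), a kinase induced through both receptors, had the smallest difference of the response genes, at 129 and 158 CPM in neonates and 248 and 232 CPM in adults. Its fitted difference was 1.42-fold (143 ± 20.2 and 240.1 ± 10.8 CPM, SD, n = 2 each, log2 fold change -0.50, SE 0.096, 95% interval -0.72 to -0.29, edgeR adjusted p = 0.0017).

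Fkbp5 (ENSRNOG00000022523), a co-chaperone that lowers the affinity of the receptor for its hormone and is itself induced by it, was even in neonates (24.4 and 24.6 CPM) and uneven in adults (80.5 and 47.2 CPM). The mean was 24.5 ± 0.105 CPM in neonates and 63.9 ± 23.6 CPM in adults (SD, n = 2 each), a 2.20-fold fitted difference (log2 fold change -1.14, SE 0.21, 95% interval -1.62 to -0.66, edgeR adjusted p = 0.0015). Adult 1 was 1.71-fold above adult 2, a spread between adult libraries larger than that of 98.1% of the genes tested. Without adult replicate 1 the log2 fold change was -0.69 and without adult replicate 2 it was -1.48, and both passed the test.

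**Figure D3:**
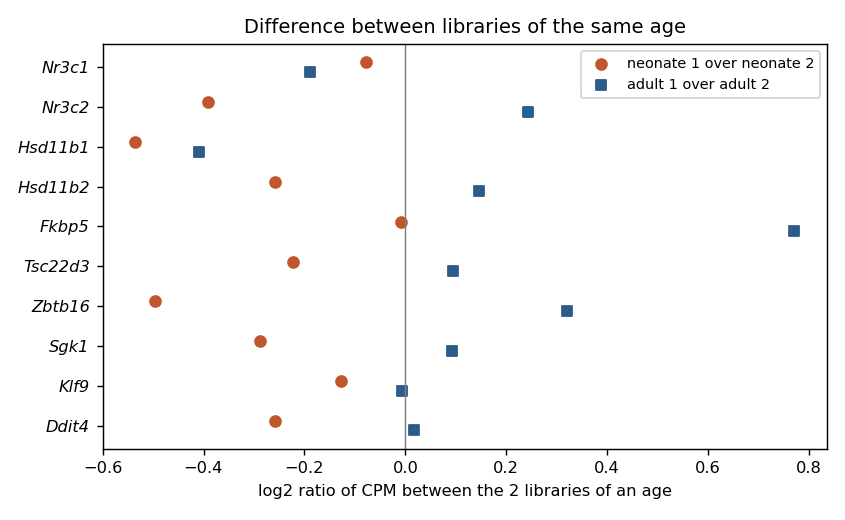
Log2 ratio of CPM between the 2 libraries of the same age (horizontal axis) for each member, with circles for neonate 1 over neonate 2 and squares for adult 1 over adult 2. All 10 circles lie left of 0, and the square of Fkbp5 lies farthest from 0.

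Within neonates, all 10 members had a lower raw CPM in neonate 1 than in neonate 2, as did 59.9% of all genes tested. Neonate 1 also had more parathyroid and mitochondrially encoded RNA than neonate 2, and the part of either in these values was not tested. Without neonate replicate 1, 9 members were still lower and 1 higher.

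Sequence upstream of the response genes was searched for short motifs of factors that act on them. RefSeq promoter windows of the GRCr8 build covered 6 members in 11 windows (Nr3c1, Fkbp5, Tsc22d3, Sgk1, Klf9 and Ddit4), and the 250 bases before each start were read on both strands. The full palindromic glucocorticoid response element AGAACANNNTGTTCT was in 0.012% of the 33469 windows of all genes and in 0 windows of members. Its arm AGAACA, part of that palindrome, was in 17.5% of all windows and in 0 of members, and the E box CACGTG was in 5.59% and in 0 of members. The forkhead core GTAAACA was in 3.21% of all windows, in the 1 window of Klf9 and in 1 of the 3 windows of Tsc22d3. The GT box GGGTGTGG bound by Krüppel-like factors was in 2.84% of all windows and in the 1 window of Ddit4. These matches describe letters in a window, and no binding was measured here. Sequence outside these 250 bases was not searched, so 0 matches in 11 windows does not show that a member lacks such sites. The 3 windows with a match are shown because they belong to response genes beyond 2-fold, each as the strand of its gene, with the match in capitals. That of Klf9 is chr1:230126396-230126645 on the plus strand, with the forkhead core 133 to 127 bases before the start. That of Tsc22d3 is chrX:109010035-109010284 on the minus strand, with the forkhead core in reverse complement 162 to 156 bases before the start. That of Ddit4 is chr20:28437038-28437287 on the minus strand, with the GT box 247 to 240 bases before the start.
Klf9: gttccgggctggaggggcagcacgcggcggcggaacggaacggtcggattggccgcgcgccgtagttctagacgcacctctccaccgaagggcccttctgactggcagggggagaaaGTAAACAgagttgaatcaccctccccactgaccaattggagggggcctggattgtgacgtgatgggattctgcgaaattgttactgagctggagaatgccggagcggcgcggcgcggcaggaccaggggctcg
Tsc22d3: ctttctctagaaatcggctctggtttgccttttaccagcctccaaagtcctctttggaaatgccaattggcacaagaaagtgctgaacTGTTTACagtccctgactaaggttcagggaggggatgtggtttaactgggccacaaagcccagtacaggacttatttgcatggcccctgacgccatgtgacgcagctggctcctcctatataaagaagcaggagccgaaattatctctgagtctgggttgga
Ddit4: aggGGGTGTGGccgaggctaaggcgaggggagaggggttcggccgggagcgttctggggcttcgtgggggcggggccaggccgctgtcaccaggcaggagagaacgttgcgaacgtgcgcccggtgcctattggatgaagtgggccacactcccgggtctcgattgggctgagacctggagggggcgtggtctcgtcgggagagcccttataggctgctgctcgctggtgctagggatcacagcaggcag

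Most of the other listed genes known to be induced by glucocorticoids were lower in neonates. The list was chosen with earlier results of these data known, so it is not independent support for the members. Of 33 listed, 29 were tested, and 20 were lower, 4 higher and 5 did not pass. Beyond 2-fold, 12 were lower and 3 higher, and the median was -0.78 on the log2 scale. The shares over all genes tested were 31.1% lower and 31.2% higher, and 13.2% and 7.68% beyond 2-fold. At 1 CPM or more in all 4 libraries, 29.9% of all genes were lower and 32.4% higher. At that level, 20 of 28 listed genes were lower and 3 higher. Among those lower in neonates, the largest differences were in Foxo3, a transcription factor of fasting and stress (4.23 and 3.17 CPM in neonates, 23.3 and 20.3 CPM in adults, log2 fold change -2.31, SE 0.20, edgeR adjusted p = 2.2e-05), and in Klf15, a metabolic partner of the receptor (5.55 and 6.80 against 33.4 and 32.2 CPM, -2.17, SE 0.13, adjusted p = 4.8e-06). Bcl6, a transcriptional repressor (-2.05), Pdk4, which holds back glucose oxidation (-1.98), and Errfi1, an inhibitor of EGF receptor signalling (-1.86), were likewise lower. So were the clock gene Per1 (-1.72), the transcription factor Cebpd (-1.46), the NF-kappa-B inhibitor Nfkbia (-1.32) and glutamine synthetase Glul (-0.66).

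The 4 listed genes that were higher in neonates were Angptl4, Cdkn1c, Mt1 and Lcn2. Angptl4, a lipoprotein lipase inhibitor that is also induced by hypoxia and fatty acids, was at 35.4 and 37.6 CPM in neonates and 7.97 and 9.29 CPM in adults, 5.02-fold higher (log2 fold change 2.33, SE 0.12, edgeR adjusted p = 2.1e-06). Cdkn1c, an imprinted inhibitor of the cell cycle, was 2.48-fold higher (1.31), and Lcn2, an iron-binding acute phase protein, 1.80-fold (0.85). The metallothioneins Mt1 (1.16, adjusted p = 0.022) and Mt2A (-0.93, adjusted p = 0.033) lay near 1 to 3 CPM and in opposite directions, belong to a family whose copies can share reads, and lost their calls without adult replicate 1 (adjusted p = 0.12 and 0.15) and without adult replicate 2 (0.14 and 0.14), Mt2A also without neonate replicate 2 (0.076). By DESeq2 neither passed (adjusted p = 0.060 and 0.058), nor did Mt1 with library size alone (0.056), and Mt1 passed the filter only through the neonatal libraries. Pck1, the gluconeogenic enzyme (-1.05, adjusted p = 0.035), lost its call without adult replicate 2 (-0.55, adjusted p = 0.40) and without neonate replicate 2 (-0.96, adjusted p = 0.062). Dusp1, a phosphatase of MAP kinases, was at -0.22 (adjusted p = 0.060) and passed without neonate replicate 2 (-0.29, adjusted p = 0.029), with the replicate block (adjusted p = 0.040), with a mean of at least 5 CPM (0.034) and with library size alone (-0.46, adjusted p = 0.0036). Anxa1, an anti-inflammatory mediator and one of the most abundant genes of the list, was at 0.07 (adjusted p = 0.57), with a sign that turned without neonate replicate 2 (-0.036) and without adult replicate 1 (-0.0026).

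Genes that glucocorticoids repress gave no common direction. Of 11 listed, 5 were tested, 2 higher, 2 lower and 1 not passing, and their median was 0.22 on the log2 scale. By comparison, 31.2% of the 13843 genes tested were higher and 31.1% lower. With only 5 genes tested, this split is not read as a trait of the list. Ptgs2, the inducible cyclooxygenase, was lower in neonates (1.67 ± 0.465 against 9.38 ± 1.93 CPM, SD, n = 2 each, -2.24, SE 0.29, edgeR adjusted p = 0.00018), as was the adhesion molecule Vcam1 (-0.79, adjusted p = 0.0013). Bglap, which encodes osteocalcin, was higher at a low level (1.42 and 1.14 against 0.291 and 0.248 CPM, 2.48, adjusted p = 0.0016), and it passed the filter only through the neonatal libraries. The chemokine Ccl2 was higher (1.46, adjusted p = 0.0088) but lost its call without adult replicate 1 (1.16, adjusted p = 0.065). Icam1 was at 0.22 (adjusted p = 0.18) and passed without neonate replicate 1 (0.40, adjusted p = 0.013).

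**Figure D4:**
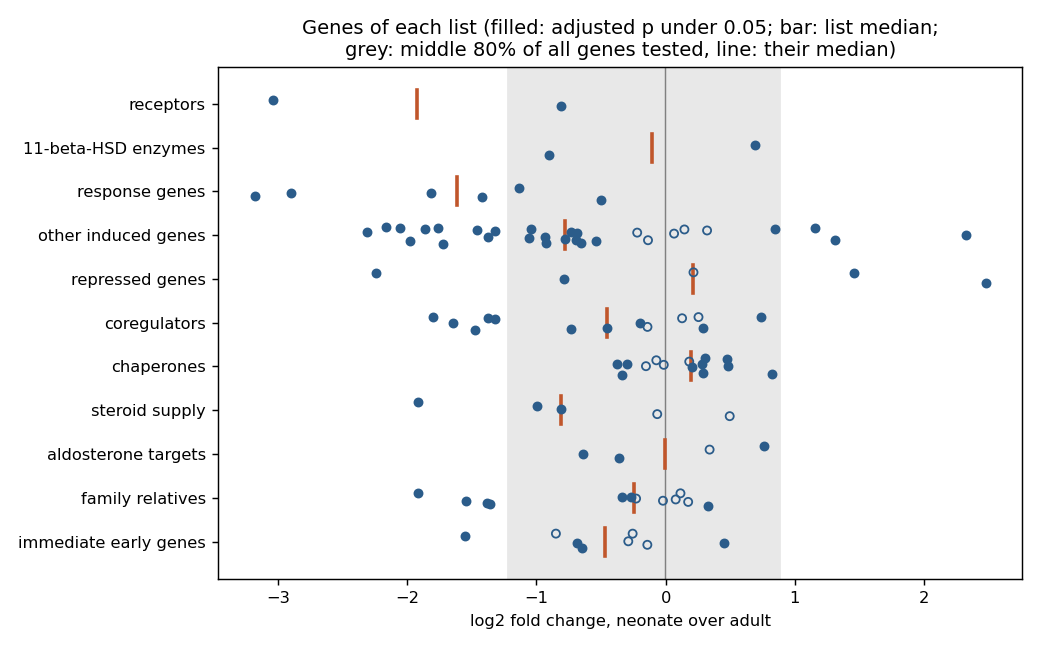
Log2 fold change, neonate over adult, of each tested gene (points, filled where the adjusted p was under 0.05) in the member groups and the other lists of the pathway, with a bar at each list's median, grey for the middle 80% of all genes tested and a line at their median. The response genes and most other induced genes lie left of 0, and the chaperones lie close to it.

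Coregulators of the receptor were lower more often than higher in neonates. Of 13 tested, 8 were lower, 2 higher and 3 did not pass, with 5 lower beyond 2-fold and a median log2 fold change of -0.46. The shares over all genes tested were 31.1% lower and 31.2% higher, with 13.2% lower beyond 2-fold. The p160 coactivator Ncoa2 was at 8.79 and 5.64 CPM in neonates and 28.5 and 31.4 CPM in adults (-1.80, SE 0.20, edgeR adjusted p = 8.4e-05), and its relative Ncoa3 at 6.13 and 5.17 against 18.9 and 23.0 CPM (-1.64, SE 0.17, adjusted p = 6.5e-05). Ncoa1, the third of that family, was at -0.14 (adjusted p = 0.21) and passed with library size alone (-0.38, adjusted p = 0.0095). The Mediator subunit Med1 (-1.37), the acetyltransferase Ep300 (-1.32) and the corepressor Nrip1 (-0.74) were lower, and Smarca4, the motor of the SWI/SNF remodeller, was higher (0.74, adjusted p = 9.7e-05). Ppargc1a, a coactivator of mitochondrial genes, was lower (0.532 and 0.519 against 1.51 and 1.98 CPM, -1.48, adjusted p = 0.011). It passed the filter only through the adult libraries and lost its call without adult replicate 2 (-1.28, adjusted p = 0.11). The corepressor Ncor1 was barely past the threshold (-0.20, adjusted p = 0.047) and lost its call without neonate replicate 1 (adjusted p = 0.13), neonate replicate 2 (adjusted p = 0.14) or adult replicate 1 (adjusted p = 0.23), by DESeq2 (0.069) or limma-voom (0.053), and with TMM factors that leave out mitochondrially encoded and ribosomal protein genes (0.059). Crebbp, the relative of Ep300, was at 0.25 (adjusted p = 0.059) and passed without neonate replicate 1 (0.40, adjusted p = 0.0046) and with the replicate block (0.25, adjusted p = 0.015).

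The chaperones that fold the receptor all lay within 2-fold between ages. Of 14 tested, 7 were higher, 3 lower and 4 did not pass, 0 of them beyond 2-fold, and the median was 0.19. Among all genes tested, 31.2% were higher and 31.1% lower. With library size alone as the scale, 2 chaperones were higher and 6 lower. Bag1, which releases substrates from Hsp70, was highest in neonates (69.0 and 75.4 against 49.6 and 47.3 CPM, 0.82, SE 0.089, edgeR adjusted p = 7.3e-05). Ppid (0.49) and the p23 co-chaperone Ptges3 (0.47) were also higher, Ptges3 not with library size alone (0.23, adjusted p = 0.056). The stress-inducible Hsp90 gene Hsp90aa1 was at 0.31 (adjusted p = 0.012), not passing with library size alone (0.061, adjusted p = 0.58), and the constitutive Hsp90ab1, the most abundant at 1838 to 2565 CPM, was at -0.15 (adjusted p = 0.23) and passed with library size alone (-0.40, adjusted p = 0.011). Hspa8 passed (0.29, adjusted p = 0.031) but not without neonate replicate 1 (adjusted p = 0.060), neonate replicate 2 (0.080) or adult replicate 2 (0.18), with a mean of at least 5 CPM (0.057) or with library size alone (0.043, adjusted p = 0.73). Lower were Dnajb1 (-0.38, adjusted p = 0.0047), Hspa4 (-0.30, adjusted p = 0.0084, but 0.060 without neonate replicate 1) and Fkbp4 (-0.34, adjusted p = 0.0065, but 0.061 without neonate replicate 2), the immunophilin that competes with Fkbp5 for the receptor.

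Of the genes for making, carrying and clearing steroids, 15 were listed, 10 had a row and 5 were tested, of which 3 were lower in neonates and 2 did not pass. For all genes tested the shares were 31.1% lower and 31.2% higher. The 3 lower genes were H6pd, the steroid reductase Srd5a1 (12.2 and 13.5 against 30.1 and 30.4 CPM, -0.99, SE 0.11, edgeR adjusted p = 7.7e-05) and Akr1c14 (24.0 and 28.9 against 49.6 and 60.5 CPM, -0.81, SE 0.12, adjusted p = 0.00041). Star and Cyp11a1, the cholesterol carrier and first enzyme of steroid synthesis, stood between 0.545 and 2.18 CPM. Star was at -0.07 (adjusted p = 0.91), turning without neonate replicate 2 (0.35) and without adult replicate 2 (0.29). Cyp11a1 was at 0.50 (adjusted p = 0.46), at -0.71 without neonate replicate 1 (adjusted p = 0.23) and at 1.15 without neonate replicate 2 (adjusted p = 0.021). Serpina6, the corticosteroid-binding globulin, and Cyp17a1 had 0 counts in every library, which allows up to 0.0827 CPM.

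Epithelial targets of aldosterone did not share a direction. Of 6 listed, 4 were tested, and 1 was higher in neonates, 2 were lower and 1 did not pass. For all genes tested the shares were 31.2% higher and 31.1% lower. The sodium pump subunit Atp1b1 was higher (363 and 300 against 265 and 200 CPM, 0.76, SE 0.15, edgeR adjusted p = 0.0020). Nedd4l, the ubiquitin ligase that Sgk1 restrains, was lower (-0.36, adjusted p = 0.015, but 0.15 without adult replicate 1). Scnn1a, a subunit of the epithelial sodium channel, was at 0.34 (adjusted p = 0.38). Of 4 other steroid receptors, only Esr1 passed the filter, and it was lower in neonates (1.02 and 1.06 against 3.79 and 4.56 CPM, -1.76, SE 0.32, adjusted p = 0.0013).

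Family relatives of the response genes were measured for comparison. Of 16 listed, 12 were tested, with 6 lower, 1 higher and 5 not passing, and a median log2 fold change of -0.25. Among all genes tested, 31.1% were lower and 31.2% higher. Lower beside Klf9 were Klf2 (-1.54) and Klf6 (-1.36), while Klf4 was at -0.23 (adjusted p = 0.17) and passed without neonate replicate 2 (-0.46, adjusted p = 0.0031), with the replicate block (adjusted p = 0.047) and with library size alone (-0.47, adjusted p = 0.022). Sgk3 (1.62 and 1.53 against 5.74 and 8.43 CPM, -1.92, SE 0.29, edgeR adjusted p = 0.00050) had a larger fitted difference than Sgk1, and the gap between the 2 genes was not tested. Beside Zbtb16, Zbtb7a was lower (-1.39) and Zbtb20 was at 0.17 (adjusted p = 0.34). Beside Tsc22d3, Tsc22d1 was at -0.27 (adjusted p = 0.027, but 0.12 without neonate replicate 1, 0.053 without neonate replicate 2 and 0.11 without adult replicate 1) and Tsc22d2 at -0.02 (adjusted p = 0.87), its sign turning without neonate replicate 2 (0.031) and without adult replicate 1 (0.052). Beside Fkbp5, Fkbp1a was at 0.32 (adjusted p = 0.0079, but 0.44 with library size alone) and Fkbp8 at 0.11 (adjusted p = 0.25). Fkbp4, which is also counted among the chaperones, was lower like Fkbp5 (-0.34, adjusted p = 0.0065, and -0.25 without neonate replicate 2).

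Immediate early genes, which rise within minutes of stimulation or tissue handling, were measured because they share induction by stress with Ddit4, Sgk1 and Klf9. Of 8 tested, 3 were lower in neonates, 1 was higher and 4 did not pass, with a median log2 fold change of -0.47. The share lower was near the 31.1% of all genes tested that were lower, while 31.2% were higher. With library size alone 6 were lower and 0 higher, where 5997 of the 13843 genes tested were lower and 2587 higher. Atf3 (-1.56), Nr4a1 (-0.69) and Jun (-0.65) were lower, and Ier2 was higher (0.45, adjusted p = 0.0075, but 0.13 with library size alone). Egr1 was at -0.14 (edgeR adjusted p = 0.19) and passed with library size alone (-0.39, adjusted p = 0.0071). Fos was at -0.29 (adjusted p = 0.36), at -0.67 without neonate replicate 1 (adjusted p = 0.031) and at 0.023 without neonate replicate 2. Their part in the levels of the members was not tested.

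**Figure D5:**
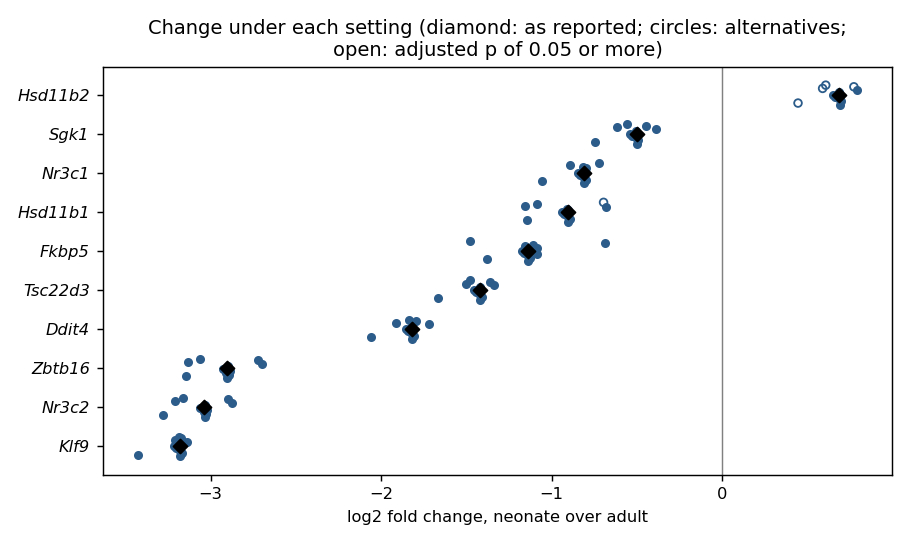
Log2 fold change of each member, neonate over adult (horizontal axis), as reported (diamonds) and under each alternative of normalization, filter, test, replicate block or left-out library (circles, open where the adjusted p was 0.05 or more). No member changed direction, and the open circles are those of Hsd11b2 and of Hsd11b1 without adult replicate 2.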

How the data were processed

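CB RNA of neonatal and adult rats was selected for poly A+ and sequenced in paired ends. The authors deposited estimated counts per gene from Salmon 1.5.2 on Rnor_6.0, not normalized and not filtered. After rounding, tests ran in R 4.3.3 (edgeR 4.0.16, DESeq2 1.42.0, limma 3.58.1), and figures and summaries were made in Python 3.11.15 with pandas 2.3.3, numpy 2.4.6 and matplotlib 3.10.9. Genes annotated as other than protein-coding in RefSeq's GRCr8 table were removed by name, and a gene needed 1 CPM or more in 2 or more libraries to be tested. The ages were compared with TMM factors and edgeR's quasi-likelihood test, with age as the only term and Benjamini-Hochberg adjustment over all 13843 genes tested and a threshold of 0.05. The SE was taken from the log2 fold change and its F statistic.

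The members and the gene lists were chosen with earlier results of these data known. The text names all members, up to 6 genes of each list by the largest log2 fold change among those that passed, up to 3 by mean CPM, and genes that define a role or family. Some genes that this rule names are not reported here. With 2 pooled libraries per age, p-values measure only the spread between these pools, which may be technical. Libraries of one age differed by more than sampling noise (chi-square per degree of freedom 32.6 in neonates and 15.4 in adults). Libraries with the same replicate number did not deviate together (r = 0.042 across 13843 genes, which are not independent), so the numbers were not taken to pair them. The procedure was tested on simulated data. Alternatives were DESeq2, limma-voom, RLE factors, TMM factors that leave out ribosomal protein and mitochondrially encoded genes, scaling by library size alone, every gene with a count, a mean of 5 CPM or more, no removal by biotype, a replicate block and each library left out in turn. Promoter sequences are RefSeq's.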

Additional observations from a re-analysis of the deposited data

How the results depend on the processing

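Under the 13 alternatives (12 for Nr3c2 and Zbtb16, which a mean of at least 5 CPM removes), no member changed direction, and 8 of 10 kept their calls throughout. With library size alone, 2587 genes were higher in neonates and 5997 lower, 0 members were higher, Hsd11b2 was at 0.45, chaperones were 2 higher and 6 lower, coregulators 1 higher, family relatives 0 higher and immediate early genes 0 higher and 6 lower. The sign turned there for Anxa1 (-0.18), Icam1 (-0.026), Zbtb20 (-0.072) and Fkbp8 (-0.13). With no filter, 1 other steroid receptor was higher. With a mean of at least 5 CPM, 0 repressed genes were higher and 0 other steroid receptors lower. DESeq2 called 4156 higher and 4115 lower, and limma-voom 4352 and 4382. With the replicate block, 4542 genes were higher and 4551 lower, and no member's call changed. Leaving out each library in turn gave 0 to 1 members higher, 8 to 9 lower, log2 fold changes of 0.59 to 0.79 for Hsd11b2 and -1.15 to -0.68 for Hsd11b1, and list counts of 3 to 5 immediate early genes lower, 0 to 1 steroid supply genes higher, 1 to 3 repressed genes higher, 1 to 2 aldosterone targets lower and 1 to 3 coregulators higher. The left-out libraries turned the sign of Cyp11a1 (-0.71), Anxa1 (-0.036 and -0.0026), Star (0.35 and 0.29), Tsc22d2 (0.031 and 0.052) and Fos (0.023), over ranges of -0.71 to 1.15, -0.036 to 0.17, -0.63 to 0.35, -0.090 to 0.052 and -0.67 to 0.023. The cause was not tested. The depth limits Nr3c2 and Zbtb16, which rest on 16 to 32 counts per neonatal library.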

Other observations

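Of the 6 response genes, 5 had a higher raw CPM in adult 1 than in adult 2. The ratios were 1.71 for Fkbp5, 1.25 for Zbtb16, 1.07 for Tsc22d3, 1.07 for Sgk1 and 1.01 for Ddit4, and Klf9 was at 0.995. These spreads were larger than those of 98.1% of the genes tested for Fkbp5 and 84.6% for Zbtb16. For Tsc22d3, Sgk1 and Ddit4 the shares were only 40.7%, 39.6% and 8.37%. How many of all genes were higher in adult 1 was not counted, so the count of 5 is not read as a trait of the response genes. Of the 29 other induced genes tested, 11 were higher in adult 1 than in adult 2, with a ratio of raw CPM from 0.534 (Pck1) to 1.25 (Irs2). Among the 14 receptor chaperones, 11 were higher in adult 1, with a ratio from 0.954 to 1.12. For lack of the share over all genes, these counts are likewise not read as a trait of either list.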
